A study of Mus musculus with 17 samples.

Results

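Endothelial identity genes are the genes by which endothelium, the inner lining of blood and lymph vessels, is told from other tissues. The set held 40 listed genes, and 37 of them had a probe set on the array. The other 3 (*Mmrn2*, *Tspan7* and *Gpihbp1*) had none. Probe sets that name a member and no other gene numbered 60, and each gene was read from 1 of them, chosen for the brightest average signal across the 17 arrays. The array measured 12393 genes in this way. RNA of the whole lung was hybridized to Affymetrix MOE430A arrays, 1 array for each of 17 male mice with a body weight of 21 to 27 g, and their age was not given. The mice were wild-type C57BL/6J or NOS2-/-, which lack the inducible nitric oxide synthase in every cell type, and both strains were purchased. They received saline or LPS (endotoxin of Escherichia coli O111:B4, 20 mg/kg) intravenously. Lungs of wild-type mice were taken at 7 h (3 mice) or 22 h (3 mice) from LPS injection, or at 22 h from saline injection (4 mice). For NOS2-/- mice there were likewise 3 mice at each time of LPS challenge, but the saline control was a single mouse at 22 h. All values are deposited log2 signals, so that a difference of 1 is a 2-fold change. The level of 1 probe set cannot be set against that of another as an amount of RNA. The array median, where used, is a rough mark of signal alone. Sums of linear signal over a list are compared between mice, and the brightest probe sets weigh most in them.

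Endothelial cells hold on to each other through junction proteins such as VE-cadherin, face the blood with a coat of sialomucins, and store von Willebrand factor for release. Their identity is kept by transcription factors of the SOXF, ETS and GATA families, and arterial, venous, capillary and lymphatic endothelium each express further genes. The lung is among the organs richest in capillary endothelium, and endotoxin acts on it directly and through inflammatory cells. The comparisons asked how the expression of these genes in the lung differed after endotoxin, at an early and a late time, and whether it differed between the genotypes. Since whole lungs were measured, fewer endothelial cells and less RNA per cell cannot be told apart.

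In saline-treated wild-type mice, 35 of the 37 genes had a signal above the array median (8.52 to 8.55) in all 4 mice, and *Erg* and *Gja5* did not. The defining markers *Pecam1*, *Cdh5*, *Cldn5*, *Kdr*, *Tek* and *Tie1* had mean signals between 11.16 (*Tie1*) and 12.68 (*Cldn5*), all above that median in each of the 4 mice. Among mice 22 h after LPS, wild-type replicate 2 stood apart. It correlated over probe sets with replicates 1 and 3 at 0.955 and 0.949, whereas these correlated with each other at 0.996, and the counts over all 37 genes are given with and without it. The single NOS2-/- saline mouse had a summed linear signal of 29272 for 11 striated muscle markers, against 6495 to 8784 in wild-type saline mice, and 10 of the 11 were higher. Its sum for 8 squamous epithelium markers was 23178, against 2048 to 2249, and 4 of the 8 were higher. Its sum for 8 platelet and megakaryocyte markers was 8574, against 5107 to 5258, and 0 of the 8 were higher at an adjusted p under 0.05 by limma. The part of muscle, squamous and platelet RNA in the results was not tested. The *Nos2* probe set had a log2 signal of 9.15 ± 0.14 (SD, n = 3) in NOS2-/- mice and 8.49 ± 0.31 (SD, n = 3) in wild-type mice 22 h after LPS. It was thus not lower in NOS2-/- mice, and since its place relative to the deleted part was not given, it checks no label.

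**Figure D1:**
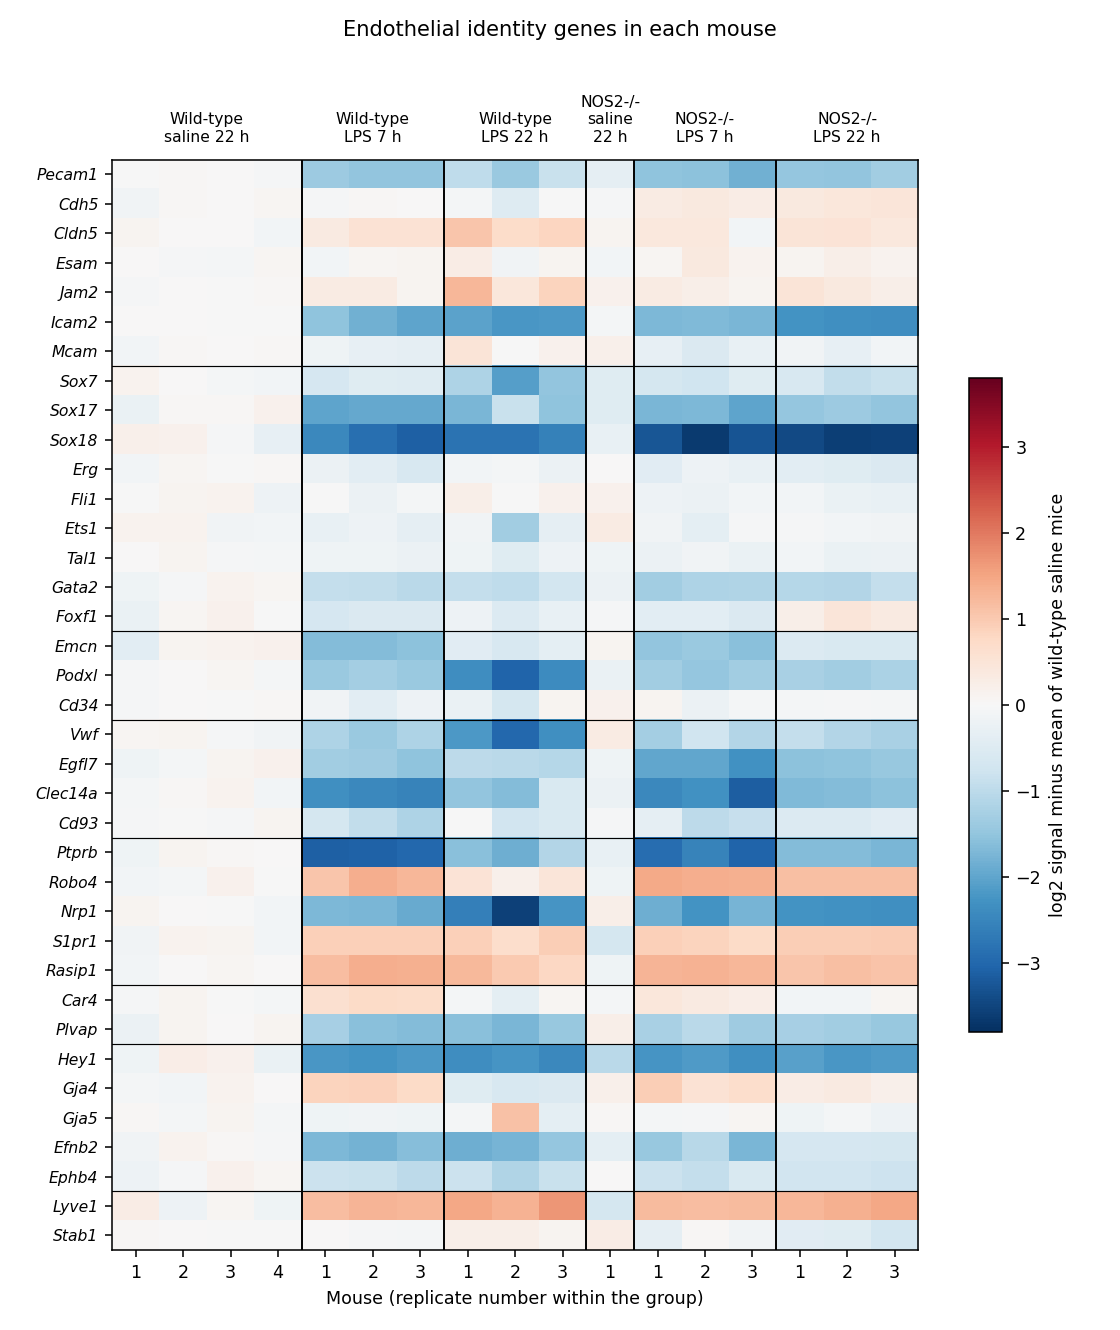
Difference in log2 signal from the mean of the 4 wild-type saline mice (colour) for each of the 37 genes (rows, ordered by role) in each of the 17 mice (columns, by group). *Ptprb*, *Sox18*, *Clec14a* and *Hey1* were below the saline mean in every LPS-challenged mouse, *Rasip1*, *S1pr1*, *Lyve1* and *Robo4* were above it, and *Podxl*, *Vwf*, *Sox7* and *Nrp1* were lowest in wild-type replicate 2 at 22 h.

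After LPS challenge, more of the endothelial identity genes fell than rose. In wild-type mice at 7 h, 20 of the 37 genes were lower than after saline and 7 were higher (limma, adjusted p under 0.05), whereas 20.6% of the 12393 genes were lower and 14.6% were higher. At 22 h, 21 were lower and 6 were higher, beside 22.6% and 13.1% of all genes. The other 10 genes at each time were not called. Of the 37 genes, 54.1% and 56.8% were thus lower, above the share of all genes, whereas the 18.9% and 16.2% that were higher lay near it. The median log2 change of the 37 genes was -0.53 at 7 h and -0.47 at 22 h, and the median over all genes was -0.07 and -0.02. Both comparisons used the same 4 saline mice, and since these were studied at 22 h only, the comparison at 7 h also differs in time after injection. Without wild-type LPS replicate 2 at 22 h, 24 genes were lower and 8 higher at 7 h (29.8% and 18.8% of all genes). At 22 h, 20 were lower and 7 higher without it (24.3% and 19% of all genes) and the share that was higher, 18.9%, was no greater than that of all genes, and the median was -0.30.

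**Figure D2:**
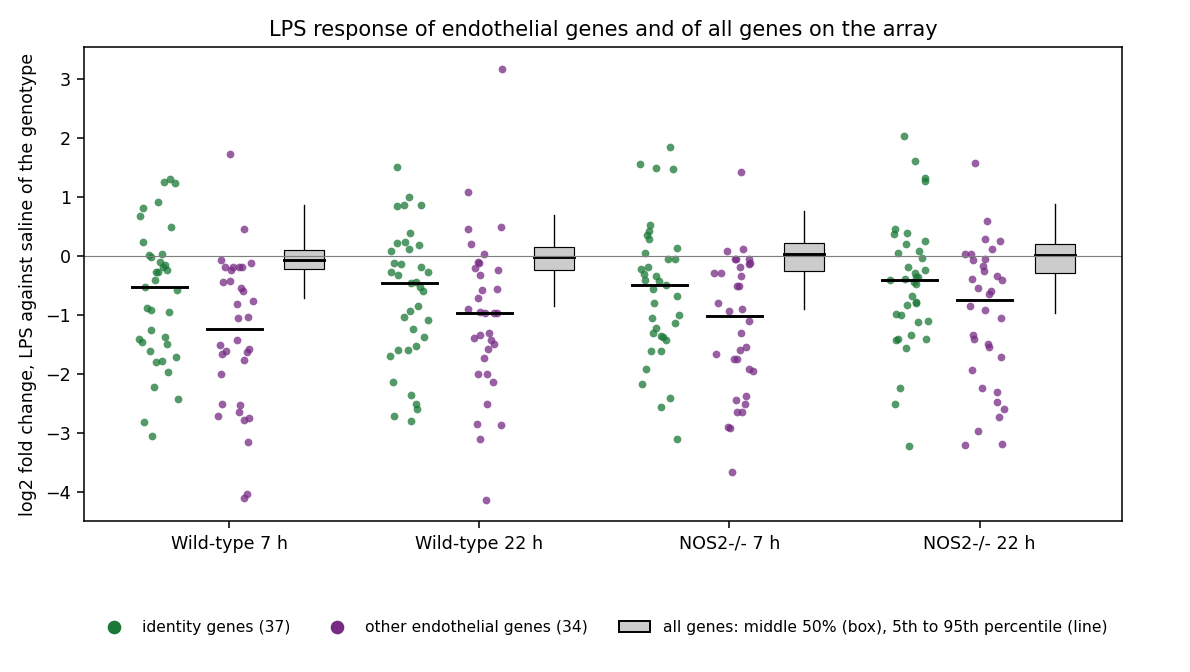
Log2 fold change after LPS against saline of the same genotype for the 37 identity genes (green points), 34 other endothelial genes (purple points) and all 12393 genes (grey box, middle 50%, with a line from the 5th to the 95th percentile), with black bars at the medians. The medians of the identity genes lay between -0.53 and -0.41, and those of all genes between -0.07 and 0.04; the NOS2-/- comparisons rest on 1 saline mouse.

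To show sequence of genes that moved in opposite directions, the promoters of *Emcn* and *Nrp1*, which fell, and of *Rasip1* and *Robo4*, which rose, are printed here. Of the 37 genes, 18 had an entry in the RefSeq promoter table (GRCm38.p6). The 250 bases before the gene start were searched on both strands for AGGAAG, a core of sites that ETS factors such as *Erg*, *Fli1* and *Ets1* can bind. It was added after CCGGAA, another ETS motif, had been counted, and since these differ in the base before GGAA, no GGAA counts for both. AGGAAG was found in 9 of the 18 (50%), beside 32.3% of 27025 genes in the table and 32.8% of the 9887 of them that are on the array. CCGGAA was found in 1 of the 18 (5.56%), beside 13.6% and 21.3%. The SOX motifs AACAAT and ACAAAG and the GATA motif AGATAA were each found in 2 (11.1%), beside 10.9%, 18.6% and 11.4% of the table and 7.54%, 16% and 8.59% of the genes on the array. Capitals mark AGGAAG, or CTTCCT on the opposite strand; the *Emcn* promoter (chr3:137340828-137341077, plus strand) held it 174 and 93 bases before the start, that of *Nrp1* (chr8:128358823-128359072, plus strand) at 91, that of *Rasip1* (chr7:45627287-45627536, plus strand) at 91 and that of *Robo4* (chr9:37401722-37401971, plus strand) at 49. The genes were chosen after their values were seen. Each printed promoter holds the motif, so its presence in both directions of change follows from that choice. Among promoters without it were those of *Clec14a*, *Efnb2*, *Ephb4* and *Gata2*, which fell, and of *Cldn5*, which rose in wild-type mice. A match is a description of letters, not of binding.
Emcn: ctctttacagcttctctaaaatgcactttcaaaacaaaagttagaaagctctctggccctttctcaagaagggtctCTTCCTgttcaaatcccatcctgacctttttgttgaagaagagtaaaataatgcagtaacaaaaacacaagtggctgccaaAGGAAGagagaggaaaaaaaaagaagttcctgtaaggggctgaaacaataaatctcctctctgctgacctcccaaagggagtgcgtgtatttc
Nrp1: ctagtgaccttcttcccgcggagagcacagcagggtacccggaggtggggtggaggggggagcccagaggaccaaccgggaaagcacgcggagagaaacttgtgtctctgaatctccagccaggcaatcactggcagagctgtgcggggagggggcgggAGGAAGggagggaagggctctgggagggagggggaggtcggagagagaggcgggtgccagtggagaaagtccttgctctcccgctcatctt
Rasip1: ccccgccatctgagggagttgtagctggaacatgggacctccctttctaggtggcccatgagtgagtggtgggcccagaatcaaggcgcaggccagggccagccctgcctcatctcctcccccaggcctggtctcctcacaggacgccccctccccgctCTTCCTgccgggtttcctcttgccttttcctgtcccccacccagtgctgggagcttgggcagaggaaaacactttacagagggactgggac
Robo4: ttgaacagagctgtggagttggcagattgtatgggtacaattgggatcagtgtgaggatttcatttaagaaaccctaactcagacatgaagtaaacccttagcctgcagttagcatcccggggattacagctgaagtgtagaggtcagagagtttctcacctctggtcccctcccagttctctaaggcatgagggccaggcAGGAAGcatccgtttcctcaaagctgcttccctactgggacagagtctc

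Of the 9 transcription factors, 6 were lower and 0 higher in wild-type mice at 7 h (0 higher also at an unadjusted p under 0.05), and 7 were lower at 22 h. Among all genes, 20.6% were lower and 14.6% higher at 7 h, and 22.6% and 13.1% at 22 h. The largest change among them was that of *Sox18*, a SOXF factor of blood and lymph vessel development. Its log2 signal was 11.95, 11.90, 11.69 and 11.42 in the 4 wild-type saline mice, 9.29, 8.88 and 8.64 at 7 h and 8.95, 8.95 and 9.19 at 22 h. No LPS-challenged mouse came within 2 log2 units of the lowest saline mouse. The fall was 6.98-fold at 7 h (log2 change -2.80, standard error 0.15, limma adjusted p = 1.04e-09) and 6.57-fold at 22 h (log2 change -2.72, standard error 0.15, limma adjusted p = 2.00e-09). In NOS2-/- mice the signal was 11.45 in the saline mouse, 8.49, 8.12 and 8.45 at 7 h and 8.30, 8.17 and 8.20 at 22 h, a fall of 8.55-fold and 9.33-fold. Standard errors belong to log2 changes also where a fold is given.

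The other SOXF factors followed different courses. *Sox17*, which marks arterial endothelium, was at 9.90, 10.20, 10.21 and 10.33 after saline, 8.15, 8.22 and 8.23 at 7 h and 8.41, 9.31 and 8.63 at 22 h in wild-type mice. It fell 3.89-fold at 7 h and 2.6-fold at 22 h (standard error 0.16, limma adjusted p = 6.43e-06). Its second probe set gave log2 changes of -2.11 and -2.09. *Sox7* was at 10.84, 10.71, 10.64 and 10.60 after saline, 10.06, 10.23 and 10.21 at 7 h and 9.51, 8.61 and 9.19 at 22 h, so that the groups did not overlap and 22 h was below 7 h. Its log2 change was -0.53 at 7 h, a call that ended without LPS 7 h replicate 1 (-0.48), and -1.60 at 22 h (standard error 0.16, limma adjusted p = 1.04e-06). In NOS2-/- mice *Sox7* was at 10.03, 9.95 and 10.23 at 7 h and 10.08, 9.75 and 9.86 at 22 h, beside 10.25 in the saline mouse, and neither change passed the test (log2 -0.18 and -0.36). Against the 4 wild-type saline mice both did (-0.63 and -0.80).

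*Gata2*, a factor of endothelial and blood cells, fell by 0.96 at 7 h and 0.85 at 22 h on the log2 scale in wild-type mice, and by 1.00 and 0.83 in NOS2-/- mice. Its wild-type signals were 11.32, 11.43, 11.62 and 11.55 after saline, 10.56, 10.55 and 10.45 at 7 h and 10.58, 10.50 and 10.79 at 22 h. The ETS factors had smaller changes. *Erg* fell by 0.41 at 7 h (standard error 0.09, limma adjusted p = 0.00165) and had a log2 change of -0.14 at 22 h (95% interval -0.32 to 0.05). *Fli1* passed the test at neither time, with intervals of -0.29 to 0.09 and -0.07 to 0.31. *Ets1* had a log2 change of -0.27 at 7 h and was called lower at 22 h (-0.60), where its signals were 11.31, 10.09 and 11.08 against 11.56, 11.56, 11.29 and 11.31 after saline. The groups overlapped, and the call ended without wild-type LPS replicate 2 at 22 h (-0.23) or without saline replicate 1 or 2 (-0.56 each). Of its 4 probe sets, the one of second-highest signal was called lower at both times (-0.63 and -0.77) and the other two at neither. *Tal1*, a factor shared with blood cells, had a log2 change of -0.19 at 7 h and -0.27 at 22 h (called at 22 h). *Foxf1*, which is also expressed in lung mesenchyme, fell by 0.58 at 7 h and by 0.33 at 22 h. The call at 22 h ended without LPS 22 h replicate 2 (-0.24) and without saline replicate 2 or 3 (-0.30 and -0.27).

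Of the 7 junction and adhesion genes, 2 were lower and 1 higher in wild-type mice at 7 h, and 2 were lower and 2 higher at 22 h. At 7 h these were 28.6% and 14.3%, beside 20.6% and 14.6% of all genes. At 22 h they were 28.6% each way, beside 22.6% and 13.1%. *Pecam1*, an adhesion molecule of endothelium that platelets and leukocytes also carry, was at 11.75, 11.80, 11.80 and 11.73 after saline, 10.38, 10.27 and 10.27 at 7 h and 10.80, 10.35 and 10.92 at 22 h. It fell 2.76-fold (standard error 0.11, limma adjusted p = 6.62e-08) and 2.11-fold (standard error 0.11, limma adjusted p = 1.99e-06), with no overlap between saline and LPS. *Icam2*, an adhesion molecule that endothelium expresses without stimulation, was at 11.93, 11.94, 11.90 and 11.91 after saline, 10.38, 10.10 and 9.91 at 7 h and 9.88, 9.72 and 9.75 at 22 h. The fall was 3.46-fold at 7 h and 4.4-fold at 22 h (standard error 0.09, limma adjusted p = 5.73e-11), and 3.06-fold and 4.73-fold in NOS2-/- mice. The SD among the 4 saline mice was 0.02.

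*Cdh5*, which encodes VE-cadherin, did not share these falls. Its signals were 11.45, 11.63, 11.58 and 11.66 after saline, 11.54, 11.63 and 11.61 at 7 h and 11.50, 11.09 and 11.58 at 22 h in wild-type mice, where the saline and LPS groups overlapped. The log2 change was 0.01 at 7 h (95% interval -0.19 to 0.21) and -0.19 at 22 h (-0.39 to 0.01), neither past the test. *Cldn5*, the claudin of endothelial tight junctions, rose by 0.48 at 7 h and 0.85 at 22 h (standard error 0.12, limma adjusted p = 3.10e-05). Its signals were 12.77, 12.69, 12.68 and 12.57 after saline, 13.03, 13.23 and 13.22 at 7 h and 13.74, 13.36 and 13.48 at 22 h, with no overlap of LPS and saline. *Jam2*, another tight junction molecule, had a log2 change of 0.24 at 7 h and rose by 0.85 at 22 h. Of its 4 probe sets, another was called lower at 7 h (-0.31). *Esam*, also of tight junctions, and *Mcam*, an adhesion molecule shared with smooth muscle, passed the test at neither time, with log2 changes of 0.03 and 0.09 for *Esam* and -0.27 and 0.22 for *Mcam*.

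**Figure D3:**
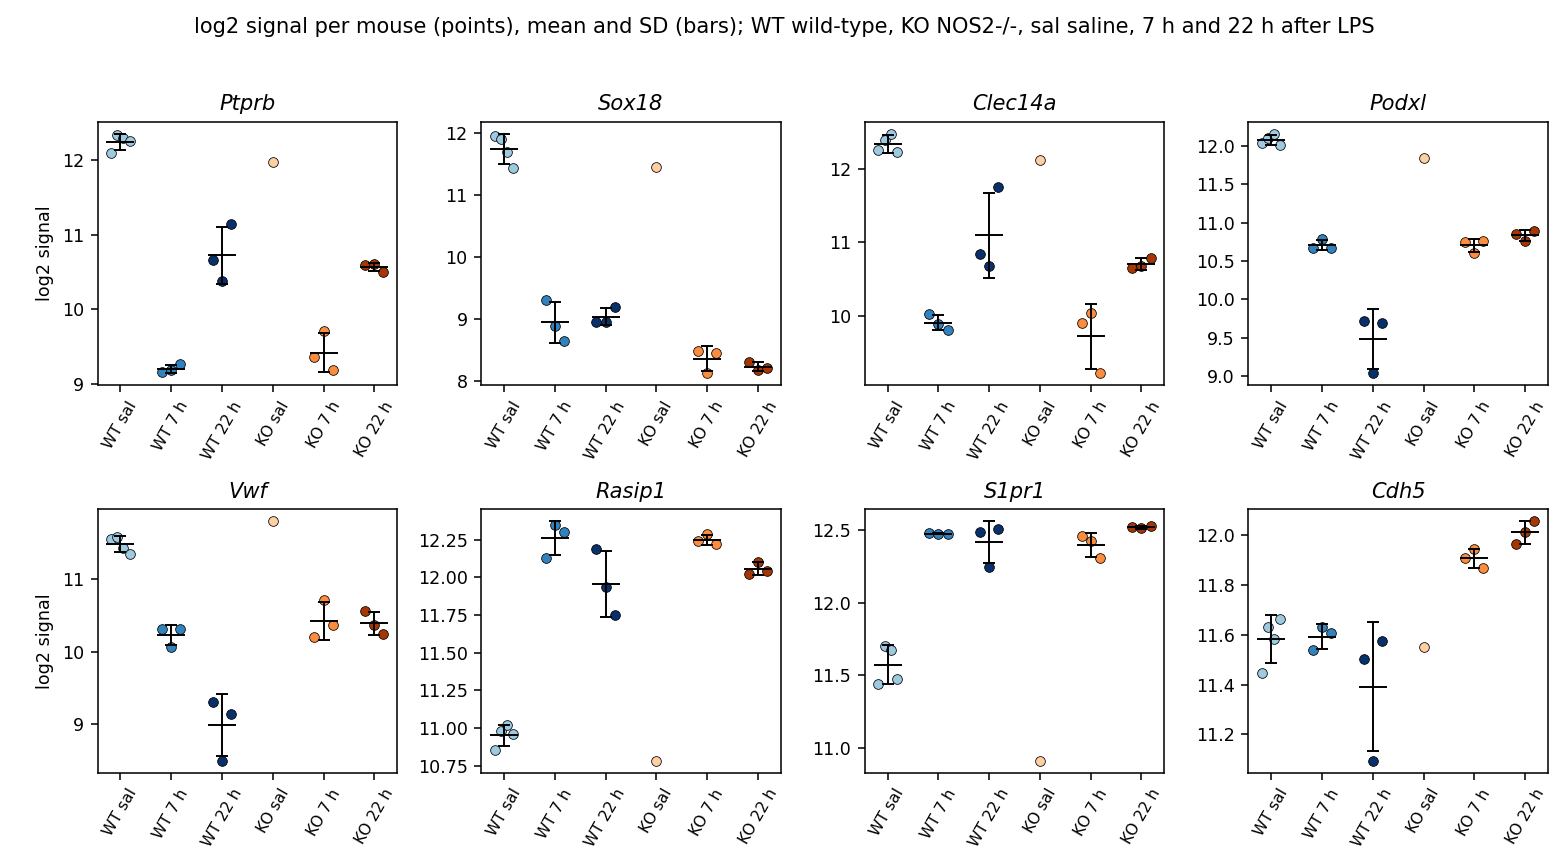
Log2 signal of 8 genes in each mouse (points), with the mean and SD of each group as bars (no bar for the single NOS2-/- saline mouse), for wild-type (WT) and NOS2-/- (KO) mice. *Ptprb*, *Sox18* and *Clec14a* were far below saline in both genotypes, *Podxl* and *Vwf* were lower at 22 h than at 7 h in wild-type mice, *Rasip1* and *S1pr1* were above saline, and *Cdh5* lay between 11.09 and 12.06; the vertical axes differ and do not start at 0.

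Among the sialomucins of the luminal surface, *Podxl* (podocalyxin) and *Emcn* (endomucin) fell in wild-type mice at both times and *Cd34* passed the test at neither. *Podxl* was at 12.04, 12.11, 12.16 and 12.02 after saline, 10.68, 10.79 and 10.67 at 7 h and 9.72, 9.04 and 9.69 at 22 h. Its fall was 2.58-fold at 7 h and 6.05-fold at 22 h (standard error 0.13, limma adjusted p = 4.47e-10). Its second probe set, of lower signal, fell by 0.58 and 0.76 on the log2 scale. *Emcn* was at 9.45, 9.93, 9.96 and 10.00 after saline, 8.20, 8.18 and 8.29 at 7 h and 9.41, 9.23 and 9.47 at 22 h. At 7 h it was 3.05-fold lower with no overlap (standard error 0.11, limma adjusted p = 1.89e-08), and at 22 h 1.38-fold lower (standard error 0.11, limma adjusted p = 0.00408), where saline replicate 1 overlapped the LPS mice. *Cd34* had log2 changes of -0.24 and -0.27 (95% intervals -0.53 to 0.04 and -0.56 to 0.01).

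All 4 genes of secreted proteins and lectins fell in wild-type mice at 7 h, and 3 fell at 22 h (20.6% and 22.6% of all genes). *Vwf* encodes von Willebrand factor, the platelet-binding protein that endothelium stores and that megakaryocytes also make. It was at 11.56, 11.59, 11.43 and 11.36 after saline, 10.31, 10.06 and 10.31 at 7 h and 9.31, 8.49 and 9.14 at 22 h. It fell 2.38-fold at 7 h (standard error 0.17, limma adjusted p = 2.25e-05) and 5.67-fold at 22 h (standard error 0.17, limma adjusted p = 1.35e-08), and every mouse at 22 h was below every mouse at 7 h. Of 8 platelet and megakaryocyte markers, 5 were higher at 7 h and 1 at 22 h, beside 14.6% and 13.1% of all genes. Their summed linear signal was 5107 to 5258 after saline, 8334 to 9468 at 7 h and 4767 to 6119 at 22 h.

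*Clec14a* and *Cd93* are lectin-domain glycoproteins of the endothelial surface, and myeloid cells also carry *Cd93*. *Clec14a* was at 12.26, 12.39, 12.47 and 12.22 after saline, 10.02, 9.89 and 9.81 at 7 h and 10.85, 10.68 and 11.75 at 22 h, a fall of 5.39-fold (standard error 0.22, limma adjusted p = 3.29e-07) and 2.37-fold (standard error 0.22, limma adjusted p = 3.10e-04). Replicate 3 at 22 h, at 11.75, lay between the other LPS mice and saline. *Cd93* fell by 0.92 at 7 h and had a log2 change of -0.45 at 22 h (adjusted p = 0.0582). Its second probe set, of low signal, was called at neither time (0.07 and -0.02). *Egfl7*, a secreted matrix protein of developing and adult vessels, was at 12.01, 12.09, 12.26 and 12.33 after saline, 10.85, 10.82 and 10.64 at 7 h and 11.17, 11.14 and 11.09 at 22 h. It fell 2.64-fold and 2.05-fold, and its 4 probe sets were all called lower at both times.

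Of the 5 receptor and signalling genes, 2 fell and 3 rose in wild-type mice at each time. Among all genes, 20.6% fell and 14.6% rose at 7 h, and 22.6% and 13.1% at 22 h. *Ptprb* encodes VE-PTP, the endothelial phosphatase that acts on VE-cadherin and the Tie receptors, and at 7 h it fell more than any other of the 37 genes. Its log2 signal was 12.09, 12.33, 12.29 and 12.25 after saline, 9.15, 9.18 and 9.26 at 7 h and 10.65, 10.38 and 11.14 at 22 h. The fall was 8.25-fold at 7 h (standard error 0.15, limma adjusted p = 2.99e-10) and 2.86-fold at 22 h (standard error 0.15, limma adjusted p = 7.86e-07), with the 22 h mice between the 7 h mice and saline. In NOS2-/- mice it fell from 11.97 in the saline mouse to 9.36, 9.70 and 9.19 at 7 h and 10.59, 10.61 and 10.50 at 22 h. *Nrp1*, a co-receptor for VEGF and semaphorins, was at 12.07, 11.96, 11.94 and 11.84 after saline, 10.25, 10.23 and 10.02 at 7 h and 9.36, 8.41 and 9.70 at 22 h. It fell 3.44-fold at 7 h and 6.95-fold at 22 h (standard error 0.21, limma adjusted p = 6.62e-08), and its log2 change at 22 h was -2.42 without replicate 2.

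*Rasip1*, *S1pr1* and *Robo4* rose. *Rasip1*, an adaptor needed for vessel lumens, was at 10.86, 10.98, 11.02 and 10.96 after saline, 12.13, 12.35 and 12.30 at 7 h and 12.19, 11.93 and 11.75 at 22 h. It rose 2.47-fold (standard error 0.09, limma adjusted p = 1.45e-08) and 2-fold (standard error 0.09, limma adjusted p = 3.18e-07), with every LPS-challenged mouse above every saline mouse. *S1pr1*, the receptor for sphingosine 1-phosphate that maintains the endothelial barrier and that lymphocytes also carry, was at 11.44, 11.70, 11.68 and 11.47 after saline, 12.49, 12.48 and 12.48 at 7 h and 12.49, 12.25 and 12.51 at 22 h. It rose 1.87-fold and 1.8-fold. *Robo4*, the endothelial roundabout receptor, was at 9.74, 9.77, 9.99 and 9.82 after saline, 10.89, 11.21 and 11.11 at 7 h and 10.34, 10.03 and 10.30 at 22 h. Its rise was 2.36-fold at 7 h (standard error 0.09, limma adjusted p = 3.93e-08) and 1.31-fold at 22 h (standard error 0.09, limma adjusted p = 0.00329).

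Genes that mark types of vessel also differed among themselves. Among arterial genes, *Hey1*, a repressor induced by Notch, was at 10.996, 11.41, 11.33 and 10.90 after saline, 8.96, 8.89 and 8.98 at 7 h and 8.80, 8.91 and 8.72 at 22 h in wild-type mice. It fell 4.65-fold and 5.1-fold (standard error 0.11, limma adjusted p = 2.38e-10), and no LPS-challenged wild-type mouse exceeded 8.98. *Efnb2*, the ephrin ligand of arteries, fell 3.26-fold and 3.23-fold, from 12.01, 12.28, 12.21 and 12.12 to 10.44, 10.36 and 10.55 at 7 h and 10.31, 10.37 and 10.70 at 22 h, and all 4 of its probe sets were called lower at both times. *Ephb4*, its receptor on veins, fell 1.85-fold and 1.91-fold (standard error 0.10, limma adjusted p = 3.81e-06). *Gja4*, a gap junction connexin of arteries, changed direction. It was at 10.10, 10.08, 10.30 and 10.20 after saline, 11.02, 11.04 and 10.90 at 7 h and 9.72, 9.57 and 9.63 at 22 h, so that the 3 groups did not overlap. It rose 1.76-fold at 7 h (standard error 0.09, limma adjusted p = 3.88e-06) and was 1.45-fold lower than saline at 22 h (standard error 0.09, limma adjusted p = 2.70e-04). *Gja5*, another arterial connexin, had a low signal (6.40 to 7.89 over the 17 mice) and alone did not exceed the 40th percentile of mean signal. It was not called, and at 22 h replicate 2 (7.89) stood above replicates 1 and 3 (6.70 and 6.40).

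Of the capillary genes, *Plvap*, which forms the diaphragms of fenestrae and caveolae, was at 12.18, 12.50, 12.41 and 12.49 after saline, 11.13, 10.82 and 10.75 at 7 h and 10.82, 10.65 and 10.95 at 22 h. It fell 2.81-fold and 3.01-fold (standard error 0.11, limma adjusted p = 3.02e-08). *Car4*, a carbonic anhydrase on the surface of lung capillaries, was at 11.30, 11.45, 11.34 and 11.28 after saline, 11.96, 12.06 and 12.04 at 7 h and 11.27, 10.97 and 11.41 at 22 h. It rose 1.6-fold at 7 h (standard error 0.09, limma adjusted p = 3.17e-05), and at 22 h its log2 change was -0.13 (95% interval -0.32 to 0.07). Of the scavenger and lymphatic genes, *Lyve1*, a hyaluronan receptor of lymphatic endothelium, was at 12.36, 11.86, 12.16 and 11.89 after saline, 13.24, 13.36 and 13.32 at 7 h and 13.54, 13.40 and 13.75 at 22 h. It rose 2.36-fold and 2.82-fold (standard error 0.11, limma adjusted p = 4.86e-08). *Stab1*, a scavenger receptor that macrophages share, had log2 changes of -0.03 and 0.18 that did not pass the test.

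Between 7 h and 22 h after LPS in wild-type mice, 8 of the 37 genes fell and 7 rose, beside 8.45% and 3.48% of all genes (limma, adjusted p under 0.05). This comparison shares its mice with those against saline. *Ptprb* (1.53, standard error 0.16, limma adjusted p = 2.04e-05), *Clec14a* (1.18) and *Emcn* (1.15) had log2 rises above 1. *Gja4* (-1.35), *Vwf* (-1.25), *Podxl* (-1.23), *Sox7* (-1.06) and *Nrp1* (-1.01) had log2 falls above 1. Smaller falls were those of *Robo4* (-0.84), *Car4* (-0.80) and *Icam2* (-0.35), and smaller rises those of *Jam2* (0.61), *Sox17* (0.58), *Mcam* (0.49) and *Egfl7* (0.36). The second probe sets of *Podxl* (-0.18), *Sox17* (0.02) and *Clec14a* (0.65) were not called here. The number of rises was 11 without LPS 22 h replicate 2 (8.04% of all genes), 4 without LPS 7 h replicate 2 and 3 without LPS 7 h replicate 3. For those LPS 7 h mice the share of all genes was not computed. The call of *Sox17* ended without that LPS 22 h mouse (0.32), without any wild-type mouse at 7 h and without 7 other mice (wild-type saline replicates 2 and 3, and the LPS-challenged NOS2-/- mice but replicate 3 at 7 h). The call of *Egfl7* ended without any wild-type mouse at 7 h or replicate 1 at 22 h (0.30 to 0.40), that of *Icam2* without replicate 1 or 2 at 7 h (-0.22 and -0.36), that of *Mcam* without replicate 2 or 3 at 7 h and that of *Jam2* without replicate 3 at 7 h. For *Nrp1* and *Podxl* the log2 change was -0.64 and -1.003 without LPS 22 h replicate 2.

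In NOS2-/- mice, the response was measured against 1 saline mouse, whose spread was assumed to be that of the other groups. At 7 h, 18 of the 37 genes were lower and 6 higher (15.6% and 9.39% of all genes), and at 22 h, 17 were lower and 5 higher (18.3% and 11.7%). The 4 largest falls at 7 h were those of *Sox18* (-3.10), *Ptprb* (-2.55), *Clec14a* (-2.40) and *Nrp1* (-2.17). Without wild-type LPS replicate 2 at 22 h, which enters these comparisons by the shared spread alone, 22 were lower and 7 higher at 7 h (23.7% and 17.1% of all genes), and 20 and 6 at 22 h (25.7% and 18%). At 22 h the 4 largest falls were those of *Sox18* (-3.22), *Nrp1* (-2.50), *Icam2* (-2.24) and *Plvap* (-1.56). *Lyve1* rose by 1.85 and 2.03, *S1pr1* by 1.49 and 1.61, *Robo4* by 1.55 and 1.31, and *Rasip1* by 1.47 and 1.27 on the log2 scale. Against the 4 wild-type saline mice, the rises of *Lyve1* were 1.18 and 1.37 and those of *S1pr1* 0.83 and 0.95. *Cdh5* rose by 0.46 at 22 h (standard error 0.14, limma adjusted p = 0.0263), from 11.55 to 11.97, 12.01 and 12.06, a call that ended without NOS2-/- LPS 22 h replicate 2 or 3. *Stab1* fell by 0.42 and 0.80, from 9.70 to 9.10, 9.46 and 9.28 at 7 h and 9.001, 8.96 and 8.73 at 22 h. Against the 4 wild-type saline mice its change at 22 h was -0.53. At 7 h the call ended without NOS2-/- LPS 7 h replicate 1 (-0.33), and against those mice its log2 change was -0.15 and was not called. In both comparisons all 11 striated muscle markers and 5 of 8 squamous epithelium markers were lower too, beside the high sums of both lists in the single saline mouse.

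The saline mouse differed from the 4 wild-type saline mice in 2 of the 37 genes, both lower (0.258% of all genes lower, 1.38% higher). *Hey1* was at 10.14 in it, against 10.90 to 11.41 in wild-type mice (log2 difference -1.02, standard error 0.16, limma adjusted p = 0.00196). *S1pr1* was at 10.91, against 11.44 to 11.70 (-0.66, standard error 0.12, limma adjusted p = 0.00747). Without wild-type LPS replicate 2 at 22 h, 3 were lower and 0 higher (1.32% and 3.25% of all genes). No gene was higher by limma in either fit, and 1 was at an unadjusted p under 0.05. Against the 4 wild-type saline mice, 21 genes were lower and 7 higher in NOS2-/- mice at 7 h (23.5% and 15.9% of all genes), and 20 were lower and 8 higher at 22 h (25.7% and 17.5%). *Hey1* in NOS2-/- mice after LPS (8.90, 9.01 and 8.83 at 7 h, 9.11, 8.94 and 9.002 at 22 h) lay within 0.4 log2 units of the wild-type LPS mice.

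From 7 h to 22 h after LPS in NOS2-/- mice, 4 of the 37 genes fell and 6 rose, beside 3.87% and 4.55% of all genes (limma, adjusted p under 0.05). The rises were those of *Ptprb* (1.15), *Clec14a* (0.99), *Emcn* (0.93), *Foxf1* (0.79), *Efnb2* (0.76) and *Egfl7* (0.58). The falls were those of *Icam2* (-0.63), *Gja4* (-0.44), *Car4* (-0.38) and *Stab1* (-0.38). *Vwf* and *Podxl* had log2 changes of -0.03 and 0.13 (95% intervals -0.41 to 0.34 and -0.16 to 0.42). The number of falls was 2 without NOS2-/- LPS 7 h replicate 2 or 3, or without LPS 22 h replicate 3. For these fits the share of all genes was not computed. The call of *Car4* ended without any of 5 NOS2-/- mice (all but LPS 22 h replicate 3 of those compared), that of *Stab1* without LPS 7 h replicate 2 or 3 or LPS 22 h replicate 3, that of *Clec14a* without LPS 7 h replicate 3 or LPS 22 h replicate 2 or 3 (0.74 to 1.00), and that of *Gja4* without LPS 22 h replicate 3. Without wild-type LPS replicate 2 at 22 h, 6 fell and 7 rose (9.55% and 11.7% of all genes).

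**Figure D4:**
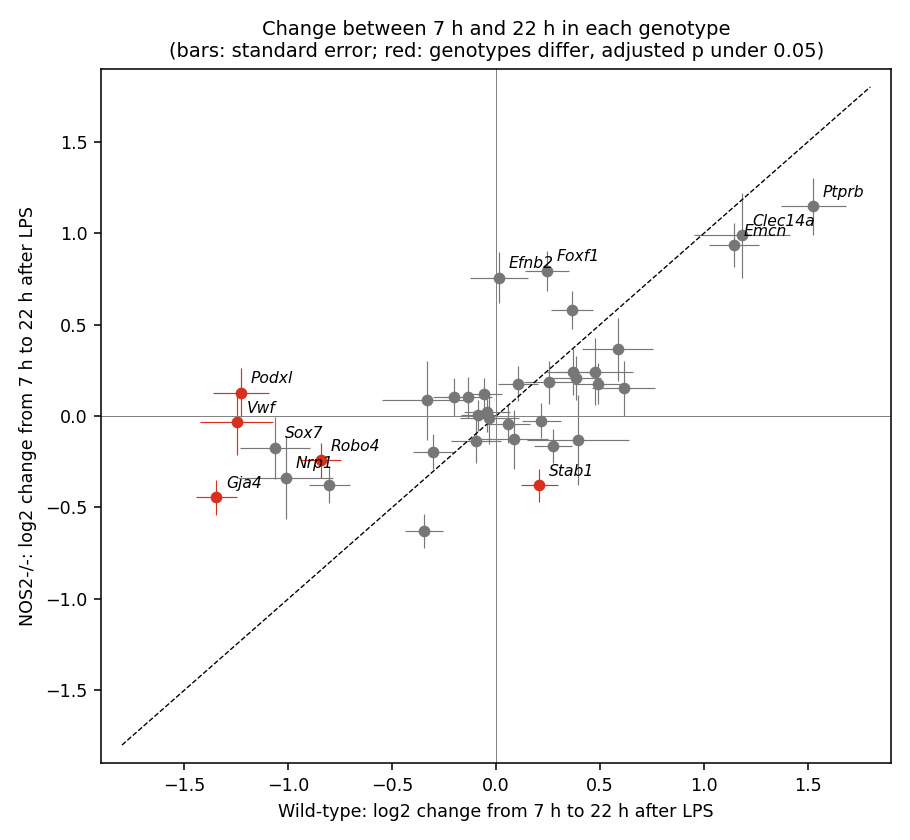
Log2 change of each of the 37 genes from 7 h to 22 h after LPS in wild-type mice (horizontal axis) and in NOS2-/- mice (vertical axis), which share no mice, with standard errors as bars. The dashed line marks equal change, and the 5 red genes (*Podxl*, *Vwf*, *Gja4*, *Robo4* and *Stab1*) are those whose change differed between the genotypes at an adjusted p under 0.05.

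At 7 h after LPS, 1 of the 37 genes differed between the genotypes (1.52% of all genes were lower and 0.67% higher in NOS2-/- mice). *Egfl7* was at 10.19, 10.19 and 9.87 in NOS2-/- mice and 10.85, 10.82 and 10.64 in wild-type mice, a log2 difference of -0.69 with no overlap (standard error 0.10, limma adjusted p = 0.00681), and the call ended without wild-type LPS 7 h replicate 1 (-0.65). By limma 0 genes were higher, and 2 were at an unadjusted p under 0.05. Without wild-type LPS replicate 2 at 22 h, 4 genes were lower and 1 higher at 7 h, among 14% and 14.7% of all genes. That mouse is no part of the contrast and enters by the shared estimate of the spread alone. Of genes with large falls, *Ptprb* differed between the genotypes by 0.22 (95% interval -0.11 to 0.55), *Podxl* by 0.00 (-0.29 to 0.28) and *Vwf* by 0.20 (-0.18 to 0.58).

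At 22 h, 8 of the 37 genes were lower and 8 higher in NOS2-/- than in wild-type mice, beside 7.84% and 10.2% of all genes (limma, adjusted p under 0.05). The gene with the largest difference was *Vwf*, at 10.57, 10.36 and 10.25 in NOS2-/- mice and 9.31, 8.49 and 9.14 in wild-type mice. All NOS2-/- mice were above all wild-type mice, by 2.66-fold on average (log2 1.41, standard error 0.18, limma adjusted p = 9.39e-05). *Podxl* was at 10.86, 10.76 and 10.89 against 9.72, 9.04 and 9.69, 2.55-fold higher (log2 1.35, standard error 0.13, limma adjusted p = 1.49e-05). For its second probe set the log2 difference was 0.25 and was not called. The 2 genes had larger differences with wild-type replicate 2 than without it (1.17 and 1.13), and both were called without it. *Efnb2* was at 11.51, 11.51 and 11.47 against 10.31, 10.37 and 10.70, a difference of 1.04 (standard error 0.14, limma adjusted p = 1.82e-04).

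The other higher genes were *Gja4* (0.80), *Sox7* (0.79), *Robo4* (0.75), *Foxf1* (0.68) and *Cdh5* (0.62), with no overlap between the genotypes. *Cdh5* was at 11.97, 12.01 and 12.06 in NOS2-/- mice and 11.50, 11.09 and 11.58 in wild-type mice (standard error 0.10, limma adjusted p = 7.85e-04). *Foxf1* was at 10.98, 11.22 and 11.08 against 10.54, 10.24 and 10.46. The lower genes were *Sox18* (-0.80), *Stab1* (-0.71), *Jam2* (-0.49), *Egfl7* (-0.47), *Mcam* (-0.41), *Cldn5* (-0.38), *Erg* (-0.33) and *Fli1* (-0.32). *Sox18* was at 8.30, 8.17 and 8.20 against 8.95, 8.95 and 9.19, and *Stab1* at 9.001, 8.96 and 8.73 against 9.65, 9.63 and 9.54, each with no overlap. The second probe set of *Fli1* (-0.08) was not called. The call of *Cldn5* ended without any of 12 mice (every wild-type mouse but LPS 22 h replicate 2, and the NOS2-/- mice 22 h after LPS), and that of *Jam2* without any of 9 (the same mice 22 h after LPS, wild-type saline replicate 2, wild-type LPS 7 h replicate 1 or 2, or NOS2-/- LPS 7 h replicate 2). Those of *Erg* and *Fli1* ended without wild-type LPS 22 h replicate 1 or NOS2-/- LPS 22 h replicate 2 or 3 (-0.33 to -0.28), that of *Fli1* also without wild-type LPS 22 h replicate 3, and that of *Mcam* without wild-type LPS 22 h replicate 1 or NOS2-/- LPS 22 h replicate 1 or 2. The number of lower genes was 3 without wild-type LPS 22 h replicate 1 or NOS2-/- LPS 22 h replicate 2. It was 4 without NOS2-/- replicate 3 and 5 without NOS2-/- replicate 1. The number of higher genes was 8 to 10 with each mouse left out in turn. Without wild-type replicate 2, 9 were lower and 8 higher, beside 16.6% and 11.9% of all genes. For the other mice left out the share of all genes was not computed, so those counts cannot be set against it.

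**Figure D5:**
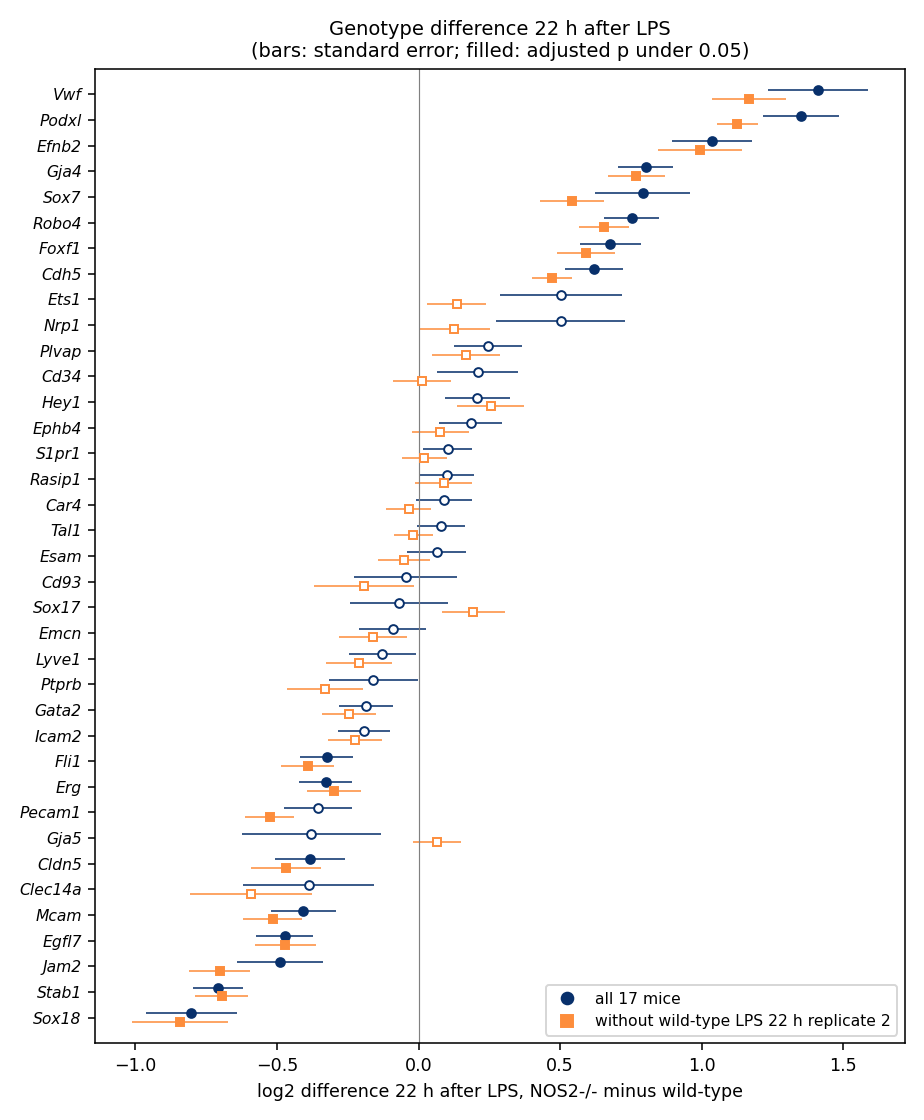
Log2 difference between NOS2-/- and wild-type mice 22 h after LPS for the 37 genes, with standard errors, from all 17 mice (blue circles) and without wild-type LPS 22 h replicate 2 (orange squares), where filled symbols mark an adjusted p under 0.05. *Vwf*, *Podxl* and *Efnb2* were more than 0.9 log2 units higher in NOS2-/- mice both ways, and *Sox18* was the lowest both ways.

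The change from 7 h to 22 h differed between the genotypes for 5 of the 37 genes, 4 of them higher in NOS2-/- mice and 1 lower, beside 2.71% and 0.702% of all genes (limma interaction contrast, adjusted p under 0.05). For *Podxl*, the change was -1.23 in wild-type and 0.13 in NOS2-/- mice, a difference of 1.36 (standard error 0.19, limma adjusted p = 0.00176). Its second probe set had a difference of 0.18 that was not called. For *Vwf* the changes were -1.25 and -0.03, a difference of 1.21 (standard error 0.25, limma adjusted p = 0.0187). *Gja4* fell by 1.35 in wild-type and 0.44 in NOS2-/- mice (difference 0.90, adjusted p = 0.00262 by limma), and *Robo4* changed by -0.84 and -0.24 (difference 0.60). *Stab1* changed by 0.21 and -0.38 (difference -0.59). The calls of *Podxl* and *Gja4* held without any 1 mouse. That of *Vwf* ended without wild-type LPS 7 h replicate 3, NOS2-/- LPS 7 h replicate 3 or NOS2-/- LPS 22 h replicate 1 (1.13 to 1.18), that of *Robo4* without any of 8 mice (0.53 to 0.62) and that of *Stab1* without wild-type or NOS2-/- LPS 7 h replicate 3, wild-type LPS 7 h replicate 2 or NOS2-/- LPS 22 h replicate 3 (-0.59 to -0.51). The 8 mice for *Robo4* were all 6 LPS-challenged NOS2-/- mice and wild-type replicates 2 and 3 at 7 h. Without wild-type LPS 7 h replicate 1, 2 genes were lower. The number of higher genes was 2 without any of those named for *Vwf*, and 7 without wild-type LPS 22 h replicate 3. For these fits the share of all genes was not computed. Without wild-type replicate 2 at 22 h, 6 were higher and 2 lower (4.65% and 3.18% of all genes), and *Efnb2* (0.70), *Sox7* (0.64) and *Jam2* (-0.68) were called as well.

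Of 37 other genes of endothelial receptors, signalling and transcription, 34 had a probe set. In wild-type mice, 25 were lower and 2 higher at 7 h, and 24 were lower and 4 higher at 22 h, with median log2 changes of -1.24 and -0.97, beside 20.6% lower and 14.6% higher of all genes at 7 h and 22.6% and 13.1% at 22 h. Without wild-type LPS replicate 2 at 22 h, 28 were lower and 2 higher at 7 h, and 25 and 4 at 22 h. *Tek*, the angiopoietin receptor, fell by 4.03 at 7 h and 3.10 at 22 h on the log2 scale (standard error 0.20, limma adjusted p = 3.73e-10 at 7 h), and *Kdr*, the main VEGF receptor, by 1.76 and 1.34. *Procr*, the endothelial protein C receptor, rose by 1.73 and 3.16. Between the genotypes at 22 h, 8 of the 34 were lower and 5 higher in NOS2-/- mice. The log2 differences of the 34 ran from -1.59 to 1.09, with a median of -0.13. *Cav1*, the caveolin gene, was among the higher ones, with a log2 difference of 1.09 (standard error 0.17, limma adjusted p = 6.09e-04). Of all genes, 7.84% were lower and 10.2% higher. Without that replicate, 12 were lower and 4 higher, beside 16.6% and 11.9% of all genes. In NOS2-/- mice against their saline mouse, 22 were lower and 1 higher at 7 h, and 20 were lower and 2 higher at 22 h (24 and 1, and 23 and 2, without that replicate).

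Markers of other cell types moved in the same mice. In wild-type mice, all 8 measured neutrophil markers were higher at 7 h and at 22 h (median log2 change 3.07 and 3.21), and their summed linear signal was 5615 to 7060 after saline, 47449 to 54907 at 7 h and 57122 to 64154 at 22 h. Of 10 pan-leukocyte markers, 8 and 9 were higher. Of 12 monocyte and macrophage markers, 5 were lower and 4 higher at 7 h, and 2 were lower and 5 higher at 22 h. Of 10 smooth muscle and pericyte markers, 5 were lower at 7 h, and 9 were lower and 1 higher at 22 h (median -0.42 and -0.998), with sums of 14975 to 18063 after saline, 10880 to 12179 at 7 h and 7466 to 8826 at 22 h. Of 8 fibroblast markers, 5 were lower at each time and 1 was higher at 22 h (median -1.07 and -1.09). Of 9 alveolar epithelium markers, 7 were lower and 1 higher at 7 h, and 6 lower and 1 higher at 22 h (median -0.23 and -0.53). The medians of the 37 identity genes were -0.53 and -0.47. Among all genes, 20.6% were lower and 14.6% higher at 7 h, and 22.6% and 13.1% at 22 h. At 7 h and 22 h, 4 and 6 of 7 B cell markers were lower, 5 and 4 of 9 T and NK cell markers were lower and 1 higher, and 3 of 4 mesothelium markers were lower. Of 8 haematopoietic progenitor and erythroid markers 2 were lower at each time and 1 was higher at 22 h. Of 9 mast cell and basophil markers 1 was higher at 7 h, and 2 were higher and 1 lower at 22 h. Of 8 squamous epithelium markers 2 were lower at each time, and of 11 striated muscle markers 4 were lower at 22 h. Between the genotypes at 22 h, 5 of 10 smooth muscle markers and 4 of 8 platelet markers were higher in NOS2-/- mice, 1 smooth muscle marker was lower, and 6 of 12 monocyte and macrophage markers were lower. Among all genes, 7.84% were lower and 10.2% higher in NOS2-/- mice. The summed platelet signal was 8090 to 8683 in NOS2-/- mice and 4767 to 6119 in wild-type mice, that of smooth muscle 10420 to 10934 and 7466 to 8826, beside the differences of *Vwf*, *Podxl* and *Stab1*. The platelet sum was also 8574 in the NOS2-/- saline mouse, against 5107 to 5258 in wild-type saline mice. At 7 h after LPS it overlapped, at 7903 to 12550 in NOS2-/- and 8334 to 9468 in wild-type mice. The smooth muscle sum was 17059 in the NOS2-/- saline mouse and 14975 to 18063 in wild-type saline mice. At 7 h it was 10567 to 12575 and 10880 to 12179. The part of these cell types in the results was not tested.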

How the data were processed

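The authors used the R package affy to turn the scans into the deposited log2 values, which were taken unchanged. Its version, and the options chosen in it, were not given in the sources used here. Of 22690 probe sets, 64 controls were left out and 22626 tested, of which 20380 name 1 gene. A linear model with a mean for each of the 6 groups (R 4.3.3, limma 3.58.1, empirical Bayes moderation with prior degrees of freedom of 3.75) gave 10 contrasts over the 17 arrays. Calls required a Benjamini-Hochberg p under 0.05 over 22626 probe sets, and counts over all genes use 1 probe set per gene. Mice are the replicates, and their number limits the precision. Samples were grouped by their labels. The members, the other gene lists and the choice of probe set were made with earlier results of these data known. All measured members may be named, full statistics are given for some of those called, and up to 4 genes of another list are named. Alternatives were quantile normalization, subtraction of array medians, the compared groups alone, removal of probe sets under the 40th percentile, a trended robust fit, array weights, a replicate block, the mean of a gene's probe sets, wild-type saline mice as the control, and each array left out. The fit was tested on simulated data. Same-numbered mice of different groups did not deviate together (r above 0.1 in 4 of 30 pairs, -0.38 to 0.36), so numbers were not taken as pairs. Protein sequences were not used here.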

Additional observations from a re-analysis of the deposited data

Results flagged for a closer look

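In the wild-type saline group, 3 of the 37 genes tested had 1 mouse apart from the other 3, by a gap over range above Dixon's limit for 4 values. *Emcn* was at 9.45 in replicate 1 and at 9.93, 9.96 and 10.00 in the others. *Mcam* was at 10.28 in replicate 1 and at 10.42, 10.43 and 10.45 in the others. *Cd93* was at 12.72 in replicate 4 and at 12.56, 12.57 and 12.58 in the others. The group of 4 was the one large enough to be tested, and chance alone gives such a gap in about 1 of 20 groups. Some such gaps would thus arise by chance among 37 genes. For 5 genes, the change from 7 h to 22 h after LPS differed between the genotypes by a test of that difference (limma interaction contrast, NOS2-/- minus wild-type): 1.36 for *Podxl*, 1.21 for *Vwf*, 0.90 for *Gja4*, 0.60 for *Robo4* and -0.59 for *Stab1*.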

How the results depend on the processing

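No call was reversed under the alternatives run. Counts of the 37 genes stayed within 1.5 times except as follows. With the compared groups alone, 5 fell and 2 rose from 7 h to 22 h in wild-type mice, 4 were lower and 1 higher in NOS2-/- than in wild-type mice at 7 h, 3 were lower at 22 h, and in the interaction 0 were lower and 2 higher, with fewer mice behind the spread. With array weights, 8 were higher in NOS2-/- mice at 22 h against saline (26.1% of all genes), 7 fell and 11 rose from 7 h to 22 h in them (17% and 15.3%), 7 were lower and 7 higher than in wild-type mice at 7 h (20.3% and 28.2%, beside 18.9% of the 37 each way), 5 were lower in the interaction (4.11%), and 6 were lower in the saline mouse (3.94%). Quantile normalization gave 11 rises from 7 h to 22 h in wild-type mice and 1 higher gene in NOS2-/- mice at 7 h. The filter at the 40th percentile gave 2 lower genes at 7 h between genotypes and 7 higher in the interaction, and the mean of probe sets gave 2 lower in the interaction. The 4 wild-type saline mice as control gave 8 higher in NOS2-/- mice at 22 h (17.5% of all genes). The cause of these shifts was not tested. Of the alternatives in this paragraph, shares of all genes were computed for array weights and the wild-type saline control alone. The other counts cannot be set against such a share.

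Leaving out each mouse in turn gave 19 to 24 lower and 7 to 8 higher genes in wild-type mice at 7 h, 19 to 23 and 6 to 7 at 22 h, and 7 to 9 and 3 to 11 from 7 h to 22 h. In NOS2-/- mice it gave 17 to 22 and 5 to 7 at 7 h, 17 to 20 and 4 to 6 at 22 h, and 2 to 6 and 5 to 7 from 7 h to 22 h. Between genotypes it gave 0 to 4 and 0 to 1 at 7 h, 3 to 9 and 8 to 10 at 22 h, 0 to 2 and 2 to 7 in the interaction, and 2 to 3 and 0 to 0 after saline. The share of all genes also moves with the mouse left out. The 24 and 8 of wild-type mice at 7 h came without LPS 22 h replicate 2, beside 29.8% and 18.8% of all genes. Without the same mouse came the 4 and 1 between genotypes at 7 h, beside 14% and 14.7%. Shares of all genes were computed for no other mouse left out.

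With the replicate number as a block, which pairs no mice here, 361 of 370 gene results kept their side of the threshold and 9 lost it. Against saline, 20 genes were lower and 7 higher in wild-type mice at 7 h, and 20 and 6 at 22 h. At 22 h between the genotypes, 7 were lower and 8 higher, and in the interaction 1 was lower and 3 higher. The share of all genes was not computed for this fit, so these counts cannot be set against it.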
